A study of Sus scrofa domesticus with 4 samples.

Results

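The genes of the mitochondrial respiratory chain and of ATP synthase were examined in explants of porcine myometrium cultured with or without adiponectin. A gene was included when its symbol began with NDUF, UQCR, COX and a digit, or ATP5, or was SDHA, SDHB, SDHC, SDHD, CYC1 or CYCS. Its probes were the non-control probes whose RefSeq accession belongs to that pig gene, so membership depends on symbols alone. The rule gave 112 probes of 29 genes, out of 6700 probes of 3029 genes that could be named on the array.

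The study addressed the effect of the adipose hormone adiponectin on transcript levels in the smooth muscle layer of the uterus in early pregnancy. Tissue came from 4 gilts, Large White by Polish Landrace crosses 7 to 8 months old, on gestation days 15 to 16. Explants of about 100 mg were kept in 2 ml of medium for 2 h before a 24 h culture. The treated group received adiponectin at 10 µg/ml, whose source the labels do not give, and the control group was the same tissue cultured for the same time with no addition. Each of 4 Agilent 2-colour arrays carried 1 treated and 1 untreated RNA, the treated one labelled with Cy5 on arrays 1 and 3 but with Cy3 on the other two arrays. Each array thus gives 1 ratio of treated over untreated signal, reported here on the log2 scale, where 0 is no difference and negative values are lower with adiponectin. The labels tie no array to a gilt, nor do they state that the 2 RNAs hybridised together shared an animal. The p-values thus reflect only how these 4 arrays vary, which may in part be technical.

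The respiratory chain sits in the inner mitochondrial membrane. Complex I takes electrons from NADH and complex II takes them from succinate, and ubiquinone carries them to complex III, from which cytochrome c carries them to complex IV, where oxygen is reduced. Complexes I, III and IV pump protons across the membrane, and ATP synthase, also called complex V, lets them back through a rotor that drives ATP formation. Most subunits are encoded in the nucleus and imported, and in the myometrium this ATP serves, among other things, contraction and ion pumping.

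The transcripts were well measured. Of the 112 probes, 108 were well above background on all 4 arrays in both channels, and none was saturated. The test took 103 probes of 26 genes, 1 gene being represented by its brightest tested probe. The tested genes were 4 subunit genes of complex I, 2 of complex II, 2 of complex III, the cytochrome c gene CYCS, 8 of complex IV, 7 of complex V, the complex I assembly factor NDUFAF3, and NDUFA4L2, a relative of NDUFA4. COX8H, the heart and muscle form of a complex IV subunit, was not well above background on any array with either of its 2 probes. COX10, which makes a precursor of the haem A of complex IV, was well above background in only 1 treated and 2 untreated channels. ATP5G1, which encodes the same rotor-ring subunit as ATP5G3, had 1 probe, which lacked a usable spot on array 4 and was therefore not tested. Its remaining log2 ratios were -0.34, -0.15 and 0.18 on arrays 1 to 3, so 2 of the 3 were negative. Besides that probe, 5 other probes of this group were left out for a spot marked as an outlier by the scanner software.

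Over the whole array 22129 probes were tested. Spots well above background made up 46.1% to 51.0% of each array in Cy3 and 54.9% to 63.1% in Cy5. The correlation of the ratios between arrays, over all tested probes, ran from -0.31 for arrays 2 and 3 to 0.25 for arrays 2 and 4. Smooth muscle markers were present, with all 8 tested members of that list well above background on every array. On a list of skeletal and cardiac muscle genes, MYH1, MYH2, MYH4, MYH7 and TNNT3 did not reach 3 arrays well above background in either channel. However, 4 other genes of that list, ACTA1, ACTC1, TNNI2 and CKM, were tested. On that list 3 genes were well above background on all arrays in both channels.

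No gene of the respiratory chain or of ATP synthase reached the threshold of the test between treated and untreated explants. In the limma fit 0 of the 22129 tested probes (0%) passed an adjusted p of 0.05, with 0.856 as the lowest adjusted value. The unadjusted p was under 0.05 for 1263 probes of the array (5.71%), against 0 of the 103 probes examined here. Taken as genes, 118 of 2134 named genes (5.53%) were under that limit, 66 higher and 52 lower, against 0 of the 26. In whole tissue, fewer cells of a type and less RNA per cell cannot be told apart.

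The fitted log2 ratios of the 26 genes lay close to 0, with a median of 0.03 and a range from -0.23 for ATP5L to 0.18 for ATP5G3. Of the 26 genes, 15 were above 0 (57.7%), and over all named genes the median was -0.02 with 45.6% above 0. The median size of a ratio without its sign was 0.08, against 0.13 over all named genes. The median 95% interval of these genes reached 0.35 to either side, a fold of 1.27, and the corresponding value over all named genes was 0.38, a fold of 1.31. For 23 of the 26 genes (88.5%) the interval lay within 1.5-fold in either direction, which held for 59.1% of the named genes. The exceptions were ATP5G3, whose interval reached a 1.64-fold higher signal, and SDHB and NDUFA4L2, whose intervals reached down to 0.641 and 0.532 of the untreated signal. For these probes, 1 a gene, the data therefore leave room for changes up to these bounds. Other probes of a gene could have wider intervals. The second COX6B probe had an SE of 0.22, against 0.14 for the brightest one. The plot of all 26 genes by array shows most intervals of similar width around 0.

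**Figure D1:**
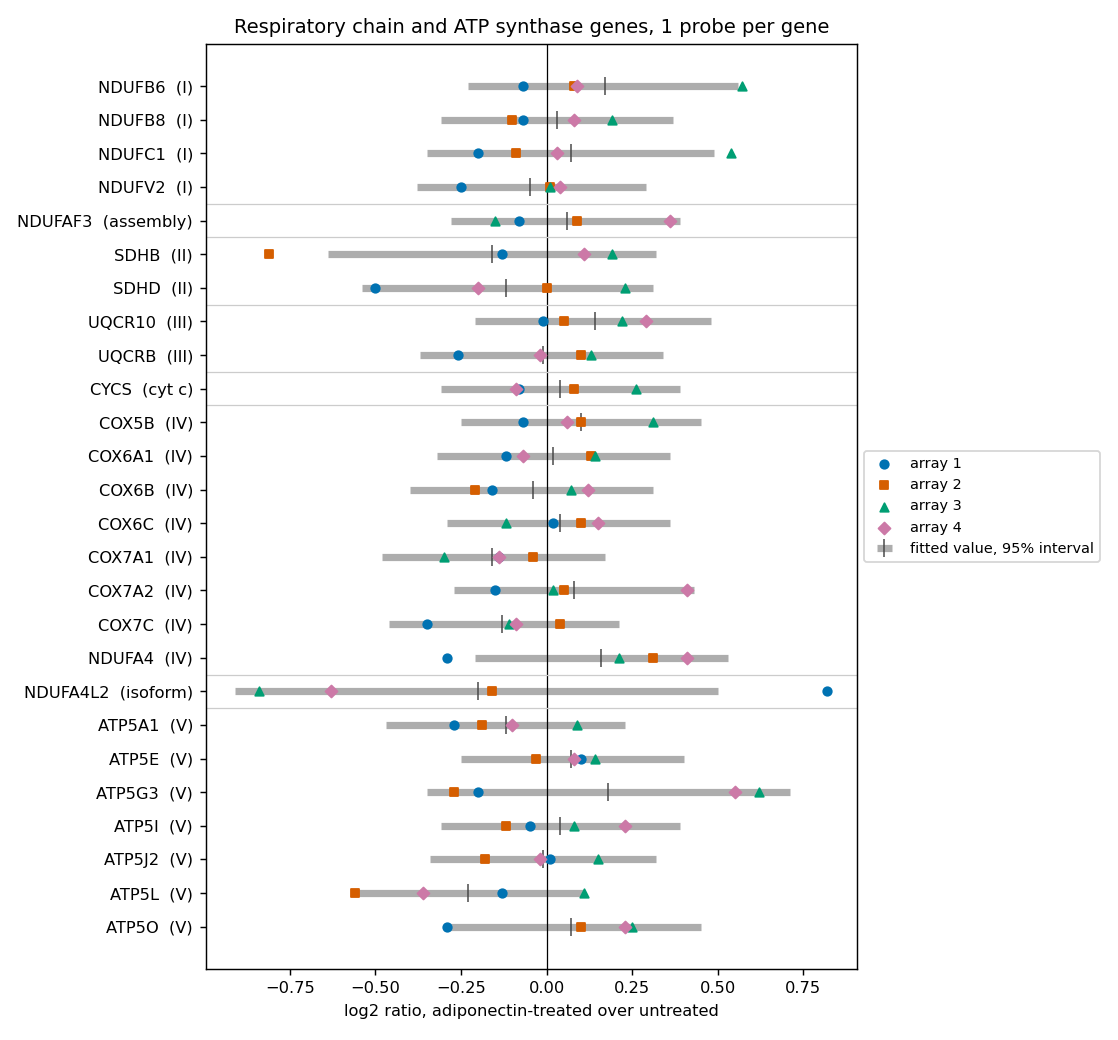
Log2 ratio of adiponectin-treated over untreated signal (horizontal axis) for the 26 tested genes, 1 probe a gene, ordered by complex. Coloured symbols are the 4 arrays, the tick is the fitted value and the grey bar its 95% interval, and every bar crosses 0.

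It was also counted how often a ratio kept its sign from array 1 to array 4. COX7A1 alone was below 0 on every array, 1 of 26, where 7.45% of named genes were. None of the 26 was above 0 on every array, where 5.53% of named genes were. With only 26 genes, these counts are too low to tell the group apart from all named genes.

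Complex I was represented by 4 of its subunits. NDUFV2, an iron-sulfur subunit of the NADH-oxidising end, had log2 ratios of -0.25, 0.01, 0.01 and 0.04 on arrays 1 to 4. Array 1 stood below the others, which were close to 0, and the fitted value was -0.05 ± 0.14 (SE, n = 4 arrays). The other 3 genes encode accessory subunits of the membrane arm, and each had its highest value on array 3. NDUFB6 gave -0.07, 0.08, 0.57 and 0.09, with a fitted value of 0.17 ± 0.16. NDUFC1 gave -0.20, -0.09, 0.54 and 0.03, with 0.07 ± 0.17. In both genes array 3 lay well above the other 3 arrays. NDUFB8 was nearer to 0, with -0.07, -0.10, 0.19 and 0.08 and a fitted value of 0.03 ± 0.14, negative on arrays 1 and 2 and positive on arrays 3 and 4. NDUFAF3, which helps to build complex I and is not a subunit, had a fitted value of 0.06 ± 0.14.

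Complex II, succinate dehydrogenase, links the chain to the citric acid cycle and was the one complex whose 2 tested genes were both fitted below 0. SDHB, its iron-sulfur subunit, had -0.13, -0.81, 0.19 and 0.11 on arrays 1 to 4. Array 2 was far below the rest, and the fitted value of -0.16 ± 0.19 had a 95% interval from -0.64 to 0.32. The other 6 SDHB probes did not share the low value of array 2: there they lay between -0.27 and -0.11, and their fitted values ran from -0.07 to 0.00. SDHD, a membrane anchor of the complex, had -0.50, 0.00, 0.23 and -0.20. Array 1 was low and array 3 high, and the fitted value was -0.12 ± 0.17. All 5 SDHD probes were fitted below 0, from -0.22 to -0.06, so the sign was shared over the gene while no probe passed the test.

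Complex III, the cytochrome bc1 complex, was represented by 2 of its small subunits. UQCR10 had -0.01, 0.05, 0.22 and 0.29 on the 4 arrays, with a fitted value of 0.14 ± 0.14. It was above 0 on arrays 2 to 4 and marginally below on array 1. UQCRB had -0.26, 0.10, 0.13 and -0.02, with a fitted value of -0.01 ± 0.14, and its arrays fell on both sides of 0.

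CYCS encodes cytochrome c, which carries electrons from complex III to complex IV and, when released into the cytosol, takes part in caspase activation. Its brightest tested probe had -0.08, 0.08, 0.26 and -0.09, with a fitted value of 0.04 ± 0.14. Arrays 1 and 4 were a little below 0 and arrays 2 and 3 above. CYCS was the one gene whose tested probes had both signs with a gap of more than 0.3. Its 12 probes ran from -0.27 to 0.07, and 7 of them were above 0. The lowest, at -0.27 ± 0.13, had array values of 0.09, -0.70, 0.06 and -0.52, and its limma adjusted p was 0.856 (unadjusted 0.0900). That probe was thus low on arrays 2 and 4, where treated RNA was in Cy3, and near 0 on arrays 1 and 3.

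Complex IV, cytochrome c oxidase, had the most genes, and their fitted values ran from -0.16 to 0.16. The highest was NDUFA4, formerly assigned to complex I and now placed in complex IV, with -0.29, 0.31, 0.21 and 0.41 on arrays 1 to 4. Array 1 was below 0 and the other 3 arrays above, and the fitted value was 0.16 ± 0.15. All 6 NDUFA4 probes were fitted above 0, from 0.06 to 0.22, and all 6 were below 0 on array 1. COX5B, a nuclear-encoded structural subunit, followed with -0.07, 0.10, 0.31 and 0.06 and a fitted value of 0.10 ± 0.14, above 0 on 3 of 4 arrays.

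The lowest complex IV gene was COX7A1, the form of subunit 7A of heart and other muscle. Its log2 ratios were -0.14, -0.04, -0.30 and -0.14, with array 3 the lowest. Of the 26 genes, 15 had their highest value on array 3, as did 35.3% of named genes. In complex IV only COX5B and COX6A1 did. The fitted value was -0.16 ± 0.13, a fold of 0.898, with a limma adjusted p of 0.890 (unadjusted 0.285). COX7A2, the more widely expressed form of the same subunit, had -0.15, 0.05, 0.02 and 0.41, and its fitted value was 0.08 ± 0.14. Its 5 probes were all fitted above 0, from 0.01 to 0.12, and array 4 was above 0 in every one of them. The difference COX7A1 minus COX7A2 was 0.00, -0.10, -0.32 and -0.55 on the 4 arrays, with a mean of -0.24 ± 0.25 (SD, n = 4 arrays), so it was below 0 on arrays 2 to 4 and the SD was as large as the mean.

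Of the remaining complex IV subunits, COX7C had -0.35, 0.04, -0.11 and -0.09. Array 1 was the lowest, the fitted value was -0.13 ± 0.14, and the second probe of the gene was fitted at 0.07. COX6A1, the form of subunit 6A found in most tissues, had -0.12, 0.13, 0.14 and -0.07 and a fitted value of 0.02 ± 0.14. COX6C was fitted at 0.04 and COX6B at -0.04. The second COX6B probe was at -0.24 and moved over a wider range, from -0.76 on array 2 to 0.61 on array 3.

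NDUFA4L2 is a relative of NDUFA4 known as a target of hypoxia-inducible factor. It had the widest spread of all 26 genes, with 0.82, -0.16, -0.84 and -0.63 on arrays 1 to 4. Array 1 was high and arrays 3 and 4 low, the reverse of NDUFA4. The fitted value of -0.20 ± 0.28 had a 95% interval from -0.91 to 0.50 and a limma adjusted p of 0.928 (unadjusted 0.503). Its second probe, well above background in 3 treated channels and 1 untreated channel, had 0.10, -0.44, -0.12 and 0.20 and did not share this pattern. The difference NDUFA4L2 minus NDUFA4 was 1.10, -0.48, -1.04 and -1.04, with a mean of -0.37 ± 1.01 (SD, n = 4 arrays). The spread between arrays was thus larger than the mean. Without array 1 the fitted value of NDUFA4L2 was -0.62, and without array 3 it was 0.21. Such a fit keeps the dye coefficient and has 1 array left in one dye orientation. That array weighs as much as the remaining ones together.

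Complex V held both ends of the range. ATP5G3, which encodes the c subunit of the rotor ring, had -0.20, -0.27, 0.62 and 0.55 on arrays 1 to 4. Arrays 3 and 4 were well above 0 and arrays 1 and 2 below, and the fitted value was 0.18 ± 0.21, the highest of the group. Leaving out array 3 or array 4 brought it to -0.03.

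ATP5L, which encodes subunit g, one of the small membrane subunits where 2 synthases join into a dimer, had -0.13, -0.56, 0.11 and -0.36. The gene had 1 tested probe, below 0 on 3 of 4 arrays and lowest on arrays 2 and 4, where treated RNA was in Cy3. Its fitted value of -0.23 ± 0.14 was the lowest of the group, a fold of 0.851, with a 95% interval from -0.57 to 0.11. Its limma adjusted p was 0.863 (unadjusted 0.144), so it did not pass. Under the alternative processing by normexp and loess, the ATP5L value was -0.10.

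ATP5A1, the alpha subunit of the catalytic head, had -0.27, -0.19, 0.09 and -0.10, below 0 on arrays 1, 2 and 4. Its fitted value was -0.12 ± 0.14. The gene was covered by 12 probes, all fitted below 0, from -0.27 to -0.05. All 12 were below 0 on array 1 and on array 2, 11 on array 4 and 3 on array 3. These probes read the same RNA and are not replicates.

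ATP5O, the stator subunit that holds the catalytic head to the peripheral stalk, had -0.29, 0.10, 0.25 and 0.23. Array 1 was the low one, and the fitted value was 0.07 ± 0.15. Its other 8 probes were fitted from -0.15 to 0.00, and on array 4 they lay between -0.40 and 0.00, below the 0.23 of the brightest probe. The sign of ATP5O therefore depended on the probe taken. The 3 other tested complex V genes were ATP5E, the epsilon subunit of the central stalk, at 0.07, ATP5I, the dimer-associated subunit e, at 0.04, and ATP5J2, the membrane subunit f, at -0.01.

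Set side by side, the complexes differed little. The median fitted value was 0.05 for complex I, -0.14 for complex II, 0.06 for complex III, 0.03 for complex IV and 0.04 for complex V, and CYCS stood at 0.04. With 1 probe a gene complex II was the lowest, and its median rests on 2 genes with standard errors of 0.19 and 0.17. Leaving out a single array turned the sign of each of these medians but that of complex II. Without array 3 complex I stood at -0.07, complex III at -0.01, complex IV at -0.02, complex V at -0.05 and complex II at -0.27. Without array 1 complex I stood at 0.17, complex III at 0.14 and complex II at -0.01. Complex V stood at 0.10 without array 2 and at -0.05 without array 4. Over all tested probes in place of 1 a gene, complexes II and V had the same median of -0.06. In complex II 0 of 12 probes were above 0, and in complex V 6 of 29. The medians over probes were 0.03 for complex I, 0.02 for complex III and 0.06 for complex IV. Counting NDUFA4 with complex I, where it was formerly placed, gave medians of 0.07 for complex I and 0.02 for complex IV.

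The values also varied between arrays, and within an array the complexes could differ too. On array 2 the median over genes was -0.41 for complex II and 0.08 for complex IV. The first rests in part on the low value of SDHB, which its other probes did not share. Over all tested probes the array 2 medians were -0.20 for complex II and 0.07 for complex IV. The median of the 26 genes was -0.13 on array 1, 0.00 on array 2, 0.14 on array 3 and 0.07 on array 4, while the median of all named genes was -0.03, -0.10, 0.05 and -0.02. On array 1, 22 of the 26 genes were below 0, where 1123 of 2134 named genes were. On array 3, 21 of the 26 were above 0, where 56.4% of named genes were. Below 0 on array 1 and above 0 on array 3 were 19 of the 26, against 31.2% of named genes. These counts were chosen after the values had been seen, and treated RNA was in Cy5 on both arrays, so they run opposite ways within 1 dye orientation.

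Each complex took part in this difference between arrays 1 and 3. The median of array 3 less array 1 was 0.50 for complex I, 0.53 for complex II, 0.30 for complex III, 0.34 for CYCS, 0.27 for complex V and 0.19 for complex IV, against 0.08 for all named genes. Taken over all tested probes of a complex, complex IV was again the lowest at 0.16 and complex II the highest at 0.88. Within complex V, all 7 genes were above 0 on array 3 and 5 of 7 were below 0 on array 1. In complex IV, 7 of 8 were below 0 on array 1 and 5 of 8 above 0 on array 3. The plot of medians by complex and array shows array 3 above array 1 in each complex.

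**Figure D2:**
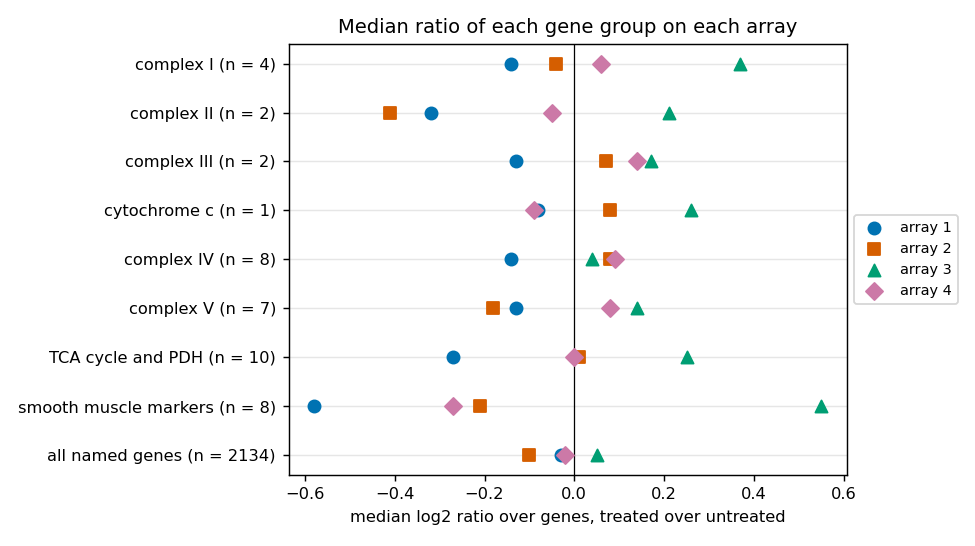
Median log2 ratio of treated over untreated signal (horizontal axis) on each of the 4 arrays. Rows are complexes I to V, cytochrome c, the citric acid cycle and pyruvate dehydrogenase list, smooth muscle markers and all named genes. The smooth muscle markers stood at -0.58 on array 1 and 0.55 on array 3.

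Several lists of cell type markers also differed between arrays 1 and 3, the endothelial one no more than all named genes did. The 8 tested smooth muscle markers were all below 0 on array 1, from -0.91 to -0.32, and all above 0 on array 3, from 0.08 to 1.58, with medians of -0.58, -0.21, 0.55 and -0.27 on arrays 1 to 4. Among the 10 tested macrophage markers the medians were 0.48, -0.20, 2.16 and 0.63, and all 10 were above 0 on array 3. The fitted values of these 10 were all above 0 as well, from 0.01 to 1.20 with a median of 0.70, where the largest fitted value of a respiratory chain or ATP synthase gene was 0.18. The smooth muscle markers had a fitted median of -0.09, with 5 of 8 below 0. For the 4 tested epithelial markers the medians were -0.43, 1.02, -0.83 and 0.84, and for the 5 endothelial ones 0.00, -0.29, 0.07 and 0.47. For 4 tested genes of the skeletal and cardiac muscle list they were -0.99, -0.06, 0.74 and -0.10, and which cells these transcripts came from was not tested. At an unadjusted p under 0.05, 3 of 10 macrophage markers were higher, where 3.09% of named genes were, and 1 of 8 smooth muscle and 1 of 5 endothelial markers were lower, where 2.44% of named genes were. None passed the adjusted threshold in limma. The part of these markers in the ratios of the respiratory chain genes was not tested.

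In most genes with several probes, probes of the same gene differed less from each other than the arrays did. Of the 26 genes, 21 had more than 1 tested probe, and in 8 of these the fitted values of the probes had both signs. For the 9 genes with at least 5 tested probes, the SD over probes within an array was 0.07 to 0.18, and the SD of the probe means over the 4 arrays was 0.16 to 0.39. The second was the larger in 9 of 9 genes. Over all 21 it was the larger in 18, and the exceptions were ATP5E, COX6C and NDUFA4L2. NDUFV2 is an example, with 5 of 5 probes below 0 on array 1, from -0.45 to -0.25. The plot of single probes shows this clustering for the genes with most probes.

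**Figure D3:**
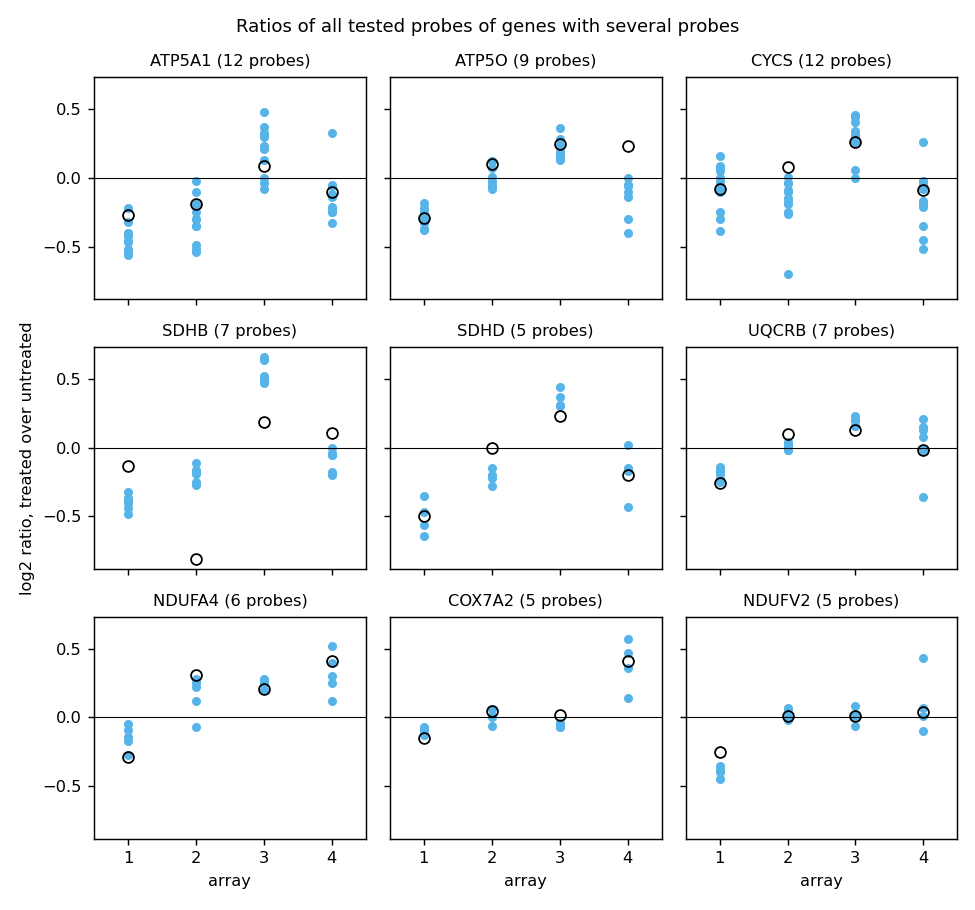
Log2 ratio of treated over untreated signal (vertical axis) on the 4 arrays (horizontal axis) for every tested probe of the genes with at least 5 tested probes. The open black circle is the probe that stands for the gene and blue points are its other probes, and on array 1 all 12 ATP5A1 probes and all 7 SDHB probes lie below 0.

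Other genes that serve the same organelle were looked at through fixed lists. No gene of these mitochondrial lists passed the test, and none was under an unadjusted p of 0.05. Of 18 genes of the citric acid cycle and the pyruvate dehydrogenase complex, which supply NADH and succinate to the chain, 10 were tested, with a median of 0.00. On array 1, 9 of the 10 were below 0, and on array 3, 10 of 10 were above 0, with medians of -0.27 and 0.25. The smallest unadjusted p-values were those of CS, citrate synthase, at 0.24 ± 0.14, SUCLG1, of succinyl-CoA ligase, at -0.28 ± 0.17, and DLAT, of pyruvate dehydrogenase, at -0.17 ± 0.15. CS was above 0 on all 4 arrays, with 0.11, 0.14, 0.31 and 0.42.

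Of 18 regulators of mitochondrial biogenesis, 4 were tested, with a median of -0.03. TFAM, which packages mitochondrial DNA and starts its transcription, had 0.60, -0.07, 0.47 and 0.36 on the 4 arrays. It was above 0 on all arrays but the second, and its fitted value of 0.34 ± 0.15 had a limma adjusted p of 0.856 (unadjusted 0.0599). PPARGC1A, a coactivator of mitochondrial gene programmes, had 0.63, -0.29, 0.20 and -0.46, a spread around a fitted value of 0.02 ± 0.15.

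Of 14 carriers and membrane channels, 6 were tested, with a median of -0.11 and 5 of 6 below 0. UCP2, an uncoupling protein, was at -0.27 ± 0.14, SLC25A3, the phosphate carrier that feeds ATP synthase, at -0.23 ± 0.14, and VDAC3, an outer membrane channel, at -0.16 ± 0.15. SLC25A3 was below 0 on all 4 arrays, with -0.51, -0.24, -0.13 and -0.03.

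Among 35 assembly factors outside the symbol rule, 3 were tested. TACO1, a translational activator of a complex IV subunit, was at -0.34 ± 0.18, PET100, a complex IV assembly factor, at 0.04 and TMEM242, an ATP synthase assembly factor, at -0.01. Of 32 genes of protein import and cristae, 3 were tested, the chaperones HSPE1 at 0.06 and HSPD1 at 0.03 and the import subunit TOMM7 at 0.01. No probe could be named for a mitochondrially encoded subunit or for a gene of ubiquinone synthesis on these lists.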

How the data were processed

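RNA of treated and untreated explant cultures was measured on 4 2-colour arrays, 1 RNA of each kind per array. Per the file headers, the deposited scanner files were made with Agilent Feature Extraction 10.7.3.1 and hold the intensity of each spot and the log10 of Cy5 over Cy3, taken from background-subtracted and dye-normalised signals. That ratio was exactly 0 in 18.1% to 28.9% of the spots of an array. It was divided by log10(2) and its sign turned on arrays 2 and 4, where the dye fields put treated RNA in Cy3. The labelling text describes treated RNA in Cy5 only. The deposited series table holds log2 ratios whose slopes against the scanner values were 1, -1, 1 and -1, with column medians of -0.10, 0.13, -0.14 and 0.16. It is thus log2 of treated over untreated, without further centring, and its direction matches the dye fields.

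Accessions were matched to symbols of assembly Sscrofa11.1, solely to name genes. Of 7125 probes carrying a RefSeq accession 6700 obtained 1 symbol, and no coordinates are given because the files name no genome build. Repeated spots were averaged per probe. Tests were limited to probes with no outlier-marked spot whose treated or untreated channel was well above background on 3 or more of the 4 arrays, which left 22129 of 43603 probes (50.8%). Ratios were fitted with limma 3.58.1 under R 4.3.3 with a treatment and a probe-specific dye coefficient (lmFit, eBayes, two-sided), adjusted by Benjamini-Hochberg over all tested probes, and the code was tested on simulated data. The SE leaves out the spread that the dye coefficient takes up. Values of single arrays still hold each probe's dye offset. Arrays 1 to 3 shared a slide and a scan and array 4 had its own. The small number of arrays limits the precision.

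The genes, lists and tests were chosen with earlier results of these data known. Array values were to be given for genes under an unadjusted p of 0.05, the 2 highest and 2 lowest tested genes of each complex, complex II, CYCS, NDUFA4, isoform pairs, and genes whose probes differed in sign by more than 0.3, and of other lists at most 3 genes by p. Alternatives were normexp (offset 50) with loess on the intensities, median centring, the authors' series table, other filters, outlier-marked spots kept, no dye term, the mean of all probes of a gene, and leaving out each array. COX6B was added to its list after the files had been read, being the pig symbol of a listed gene.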

Additional observations from a re-analysis of the deposited data

Results flagged for a closer look

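The array values of the 26 tested genes were each searched for an array far from the other 3 of the same gene, which chance gives in about 1 in 20 such sets, or 1.3 of 26. There was 1. NDUFV2, of complex I, had a log2 ratio of -0.25 on array 1, while the other 3 arrays lay between 0.01 and 0.04. The gap made up 0.903 of the whole range. Its other 4 tested probes were also below 0 on array 1, between -0.45 and -0.35. Without array 1 the fitted value of NDUFV2 was 0.02.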

How the results depend on the processing

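No member gene or probe passed an adjusted p of 0.05 under any of the 12 alternatives run, with 0.430 as the smallest adjusted p of a member probe, without array 3. With no filter on dim probes, 1 gene was lower at an unadjusted p under 0.05, COX7A1 (0.0492). Leaving out each array gave 0 to 1 such genes, the 1 being NDUFA4L2 without array 1, and 0 to 12 tested probes past an adjusted p of 0.05, the 12 without array 3. Leaving out an array turned the sign of 15 of the 26 genes and not of the other 11. The log2 ratios of the 15 then ran from -0.03 to 0.38 for ATP5G3, -0.05 to 0.13 for ATP5I, -0.05 to 0.03 for ATP5J2, -0.06 to 0.21 for ATP5O, -0.05 to 0.08 for COX6A1, -0.13 to 0.04 for COX6B, -0.04 to 0.13 for CYCS, -0.62 to 0.21 for NDUFA4L2, -0.01 to 0.12 for NDUFAF3, -0.04 to 0.09 for NDUFB8, -0.11 to 0.25 for NDUFC1, -0.11 to 0.02 for NDUFV2, -0.39 to 0.07 for SDHB, -0.30 to 0.06 for SDHD and -0.11 to 0.08 for UQCRB. In the 11 whose sign did not turn the values ran from -0.21 to -0.03 for ATP5A1, 0.05 to 0.10 for ATP5E, -0.29 to -0.17 for ATP5L, 0.01 to 0.19 for COX5B, 0.00 to 0.07 for COX6C, -0.20 to -0.12 for COX7A1, 0.00 to 0.17 for COX7A2, -0.19 to -0.07 for COX7C, 0.04 to 0.29 for NDUFA4, 0.01 to 0.33 for NDUFB6 and 0.08 to 0.20 for UQCR10. The median of all 26 was 0.08, 0.06, -0.04 and -0.01 without arrays 1 to 4 in turn. With the mean of all probes of a gene, ATP5O was at -0.04, CYCS at -0.02, UQCRB at 0.01 and the complex V median at -0.04. With normexp and loess, CYCS was at -0.01. No other gene turned under the alternatives that kept all arrays, and the causes were not tested. Without array 4 the fit holds slide 1 alone. Each fit that left out an array kept the dye coefficient, so one dye orientation had 1 array. That array weighed as much as the remaining ones together, and the p-values of these fits rest on very little spread. Each ratio already sets treated against untreated RNA within an array. No paired analysis was possible because the labels tie no RNA to an animal, and no second group of ratios shares the replicate numbers. Dim probes, such as those of COX8H and COX10, were fitted only in the alternative with no filter on dim probes.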
